A study of Homo sapiens with 10 samples.

Results

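The genes described here form an interferon and RNA sensing module: receptors inside the cell that detect foreign or misplaced nucleic acid, the transcription factors they work through, and the antiviral genes those factors switch on. The list held 55 gene symbols written by name, and a symbol counted as measured where a probe set of the array was annotated to it. This gave 37 members of 14884 genes measured in all, each with a single named probe set. The other 18 (DDX58, IFI16, STAT2, OAS1, OAS2, OAS3, MX1, CMPK2, IFI6, IFI27, PARP9, PARP12, PARP14, GBP1, GBP2, PSMB8, PSMB9 and TAP1) were not analysed here. No filter on dim values was applied, so none of the 37 was lost.

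Expression was measured on arrays in MCF10A, an immortalised line of human breast epithelial cells that does not form tumours. The 5 arrays of the parental group came from H2A.X wild-type cells (WT), and the 5 of the knockout group from MCF10A cells with the H2A.X gene knocked out (H2A.X-KO). Both groups were grown in DMEM/F12 with horse serum, EGF, insulin, hydrocortisone and cholera toxin for 48 h. No interferon, virus or nucleic acid treatment is named in the labels. The series asks how loss of H2A.X, a histone variant that is phosphorylated at DNA breaks, relates to epithelial-mesenchymal transition. The labels number the samples 1 to 5 in each group. Whether these were separate cultures, and whether the knockout was a single clone, is not said. The p-values therefore cover the spread among these arrays alone, which may be technical.

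Values are log2 signals per probe set as deposited, differences are knockout minus parental, and a gene was called lower or higher where limma gave an adjusted p under 0.05 (Benjamini-Hochberg over all 14884 genes). A gene is termed dim where its mean signal was below 5.49, the median over all genes, in both groups; log2 differences of dim genes are compressed. Array medians lay between 4.26 and 4.35. The knocked-out gene was not analysed here, so the groups rest on the labels. Of 9 basal epithelial markers chosen for the line, the 3 measured ones (KRT5, KRT14 and EGFR) were bright, and all 3 were higher in the knockout arrays. Their mean signal ran from 9.35 to 9.51 in parental and from 10.70 to 10.88 in knockout arrays. Of 12 immune cell markers 5 were measured, with means of 4.86 to 5.03 and 4.84 to 5.11. Among these CD14 fell by 0.76, CSF1R rose by 0.72, and LYZ, NKG7 and TYROBP did not pass. Fibroblast markers (3 of 9 measured) averaged 3.98 to 4.25 in parental and 4.73 to 4.89 in knockout arrays, where DCN rose by 2.06 and LUM (-0.095) and THY1 (0.11) did not pass. Endothelial markers (5 of 7 measured) averaged 3.89 to 3.99 and 4.22 to 4.44, with KDR up by 1.69, while PECAM1, VWF, CLDN5 and EMCN did not pass. The part of these markers in the results below was not tested. In bulk RNA, fewer cells expressing a gene and less of its RNA per cell cannot be told apart.

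In the textbook pathway, the helicases RIG-I and MDA5 bind double-stranded RNA in the cytosol and signal through the mitochondrial adaptor MAVS, while cGAS binds DNA and signals through STING. Both routes activate IRF3 and IRF7, which switch on interferon genes. Secreted interferon then acts through its receptors, JAK kinases and a complex that holds IRF9 on a DNA element called ISRE. Many of the genes that carry it restrict virus entry, RNA or protein synthesis. Epithelial cells keep a low tonic level of this programme without infection.

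The element can be read in the promoters of the members. RefSeq start sites (GRCh38.p14) were available for 25 of the 37, and the 250 bases before the first listed start were searched on both strands for the ISRE core GAAANNGAAA. It was found in 13 of the 25 (52.0%), against 839 of 27305 gene promoters (3.07%). The GAS element of interferon gamma responses, spelled TTCNNNGAA, was found in 5 of the 25 (20.0%), against 6.78% of all. Members were listed for their part in interferon responses, which favours high shares of both elements. These shares therefore describe the list and are not a result of the arrays. In 4 members 2 ISRE matches overlapped each other, and in 1, BST2, an ISRE match overlapped a GAS match. The ISRE core was present in 9 of 16 members that fell, 1 of 2 that rose and 3 of 7 that did not pass. The following stretches show the element in members with different results, with ISRE matches in capitals and all bases upstream of the start, read 5′ to 3′ on the strand of the gene. BST2 had the largest fall, IFIH1 the largest among sensors, IFITM3 and IFIT3 stand for the effector families, IFI44L had the largest rise, and ISG15 did not pass.
BST2: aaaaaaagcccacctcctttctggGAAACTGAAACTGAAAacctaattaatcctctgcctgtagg
IFIH1: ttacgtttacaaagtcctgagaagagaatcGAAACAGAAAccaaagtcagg
IFITM3: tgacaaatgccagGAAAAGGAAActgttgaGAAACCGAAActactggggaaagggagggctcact
IFIT3: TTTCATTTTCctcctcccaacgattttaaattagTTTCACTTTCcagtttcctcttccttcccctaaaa
IFI44L: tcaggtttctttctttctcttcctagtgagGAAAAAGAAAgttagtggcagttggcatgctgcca
ISG15: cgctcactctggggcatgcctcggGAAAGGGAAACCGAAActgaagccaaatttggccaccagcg

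These stretches lie on the minus strand at chr19:17405720-17405784 for BST2, chr2:162318685-162318735 for IFIH1 and chr11:320861-320925 for IFITM3. On the plus strand they lie at chr10:89327841-89327909 for IFIT3, chr1:78620345-78620409 for IFI44L and chr1:1013360-1013424 for ISG15. The match nearest the start began 21 bases before it in IFIH1, 35 in IFITM3, 73 in IFI44L, 107 in ISG15, 122 in IFIT3 and 124 in BST2. BST2 and ISG15 each show overlapping copies, and both IFIT3 matches are on the opposite strand. Matches farther upstream in IFIH1 (159 and 153 bases) and IFI44L (164) lie outside the stretches. A match is a description of the letters and not of a factor bound in these cells.

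Most of the module was lower in knockout cells, with a few strong exceptions. Of the 37 members 20 fell, 3 rose and 14 did not pass, so that 62.2% were called against 34.3% of all genes. The falls made up 54.1% of members against 19.0% of all genes, and the rises 8.11% against 15.3%. Members were chosen with earlier results of these data known, so these shares describe the list and are not a test of it. The median difference was -0.27, against 0.00024 over all genes, and 32 of 37 differences were negative. In 15 of 37 members every knockout array lay below every parental array, against 16.0% of all genes. In 3 of 37 every knockout array lay above, against 12.2% of all genes. Together these were 18 of 37, against 28.2% of all genes. Most falls were small: 1 exceeded 2-fold, 9 lay between -1 and -0.5, 7 between -0.5 and -0.3, and 3 were smaller still.

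**Figure D1:**
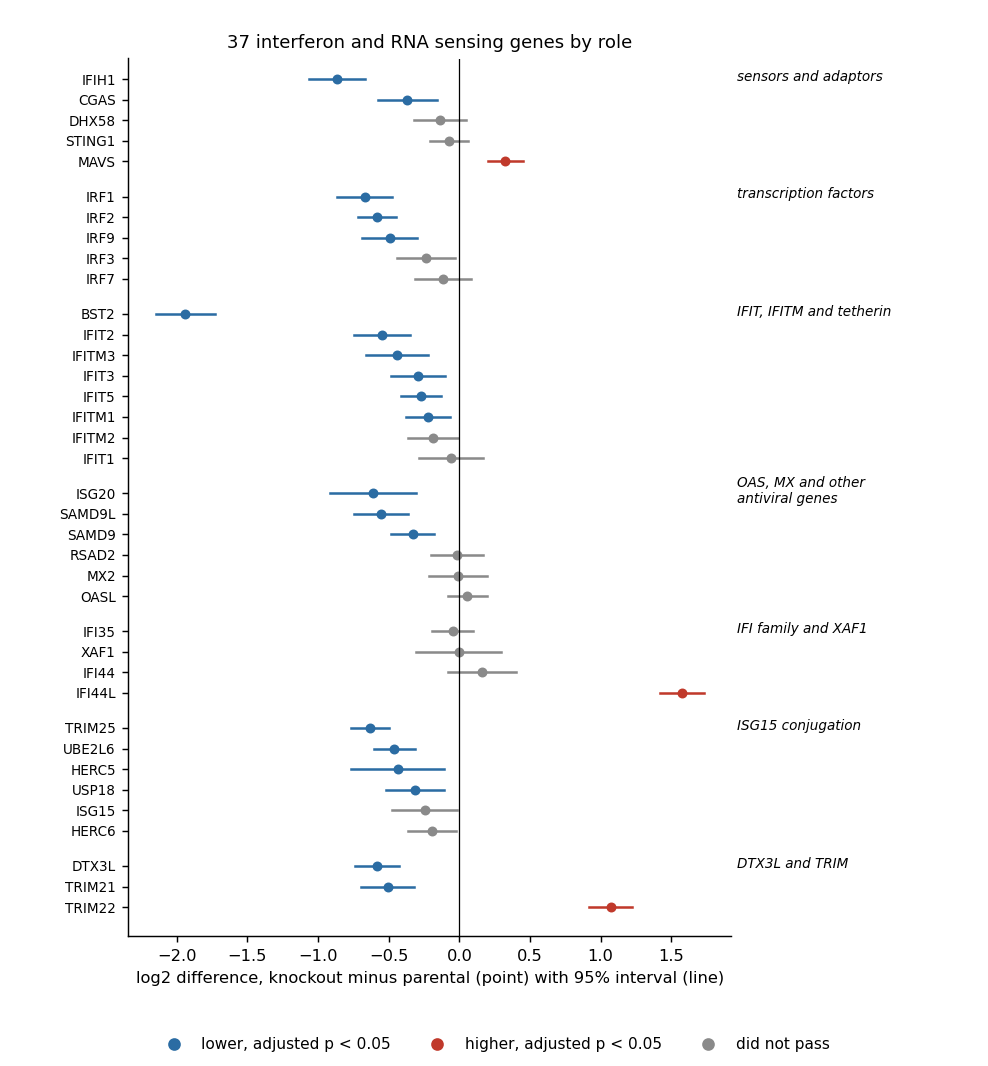
Log2 difference (knockout minus parental, x axis) of the 37 members grouped by role (y axis), with the unadjusted 95% interval of the limma fit as a line. BST2 at -1.94 lies farthest left and IFI44L at 1.57 farthest right, and 20 points are coloured as lower, 3 as higher and 14 as not past the test.

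Among the nucleic acid sensors and adaptors 5 of 7 listed genes were measured, of which 2 fell, 1 rose and 2 did not pass. For this and the later counts by role, the shares over all genes were 19.0% lower, 15.3% higher and 34.3% called. Among genes that were not dim they were 31.5%, 24.3% and 55.9%. Each role holds few genes, so its count describes those genes alone. IFIH1 encodes MDA5, the sensor of long double-stranded RNA. Its signal was 6.23, 6.31, 6.42, 6.52 and 6.30 in parental arrays 1 to 5 and 5.17, 5.65, 5.59, 5.54 and 5.49 in the knockout arrays. The groups did not overlap, and knockout replicate 1 was the lowest array. The difference was -0.87 ± 0.091 (SE, n = 5 each), a 1.82-fold lower signal (limma, adjusted p = 6.71e-06). CGAS, whose product makes the messenger that activates STING, fell from 6.32 ± 0.10 to 5.95 ± 0.22 (SD, n = 5 each). Its difference was -0.37 (limma, adjusted p = 0.00879), although knockout replicate 3 at 6.20 overlapped parental replicate 2 at 6.19.

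MAVS, the adaptor below the RNA sensors, moved the other way. It was at 8.55, 8.61, 8.63, 8.62 and 8.60 in parental arrays and at 8.86, 8.81, 8.94, 9.02 and 9.01 in knockout arrays. Every knockout array was above every parental array, by a mean of 0.32 ± 0.057 (SE), or 1.25-fold (limma, adjusted p = 0.000518). STING1, the adaptor below cGAS, did not pass at -0.075 (95% interval -0.21 to 0.06, unadjusted). DHX58, which encodes the regulatory helicase LGP2, was at -0.13 (-0.32 to 0.05) and dim. The sensor genes IFIH1 and CGAS were thus lower, while the adaptor genes were higher (MAVS) or did not pass (STING1).

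All 5 measured transcription factor genes had negative differences, and 3 passed. IRF1, an activator that is itself induced by interferon, was at 6.14, 5.98, 5.94, 6.14 and 5.85 in parental and 5.07, 5.48, 5.27, 5.39 and 5.48 in knockout arrays. These groups did not overlap, and the difference was -0.67 ± 0.090 (SE), 1.59-fold lower (limma, adjusted p = 5.77e-05). IRF2 competes with IRF1 for the same sites and is mostly known as a repressor. It had tight values of 9.10, 9.20, 9.15, 9.16 and 9.15 in parental arrays and 8.44, 8.65, 8.53, 8.72 and 8.51 in knockout arrays. The gap of -0.58 ± 0.062 (SE) was 1.5-fold (limma, adjusted p = 7.26e-06), so the activator gene and the competitor gene were both lower.

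IRF9, a DNA-binding subunit of the complex that acts on the ISRE, was at 5.96, 6.05, 6.20, 6.0 and 6.10 in parental arrays. In knockout arrays it was at 5.39, 5.49, 5.64, 5.45 and 5.88, again without overlap, a difference of -0.49 (limma, adjusted p = 0.000704). IRF3, the factor activated first after sensing, was at 6.63 ± 0.13 and 6.40 ± 0.19 (SD, n = 5 each), and its difference of -0.24 did not pass (limma, adjusted p = 0.0765). It passed without parental replicate 5 (-0.28, adjusted p = 0.0465), without knockout replicate 4 (-0.30, adjusted p = 0.0179), and with the replicate number as a block (adjusted p = 0.0477). IRF7, which amplifies interferon production, was at -0.12 (95% interval -0.31 to 0.08) and dim. Its SD was 0.19 in parental arrays.

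**Figure D2:**
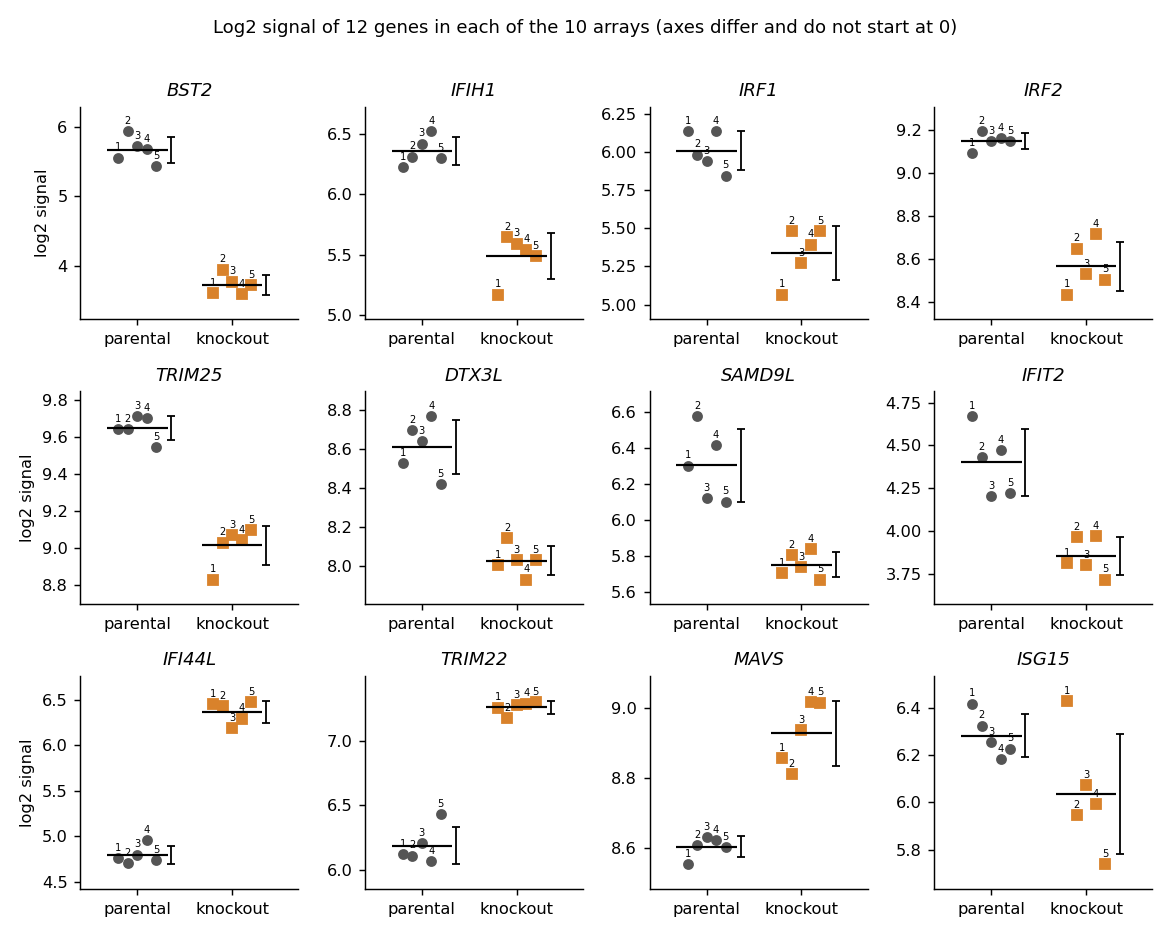
Log2 signal (y axis, a separate range for each gene, not starting at 0) of 12 members in the 5 parental arrays (grey circles) and 5 knockout arrays (orange squares), numbered by replicate, with the mean as a horizontal line and the SD as a bar. In the 8 genes of the upper rows all knockout arrays lie below the parental ones, in IFI44L, TRIM22 and MAVS they lie above, and in ISG15 knockout replicate 1 lies at the level of the highest parental array.

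BST2 showed the largest difference in the module. It encodes tetherin, a membrane protein that holds budding virus particles at the cell surface. Its signal was 5.56, 5.94, 5.73, 5.68 and 5.44 in parental arrays and 3.61, 3.95, 3.77, 3.59 and 3.73 in knockout arrays. The lowest parental array was well above the highest knockout array, and the difference was -1.94 ± 0.096 (SE), 3.84-fold lower (limma, adjusted p = 8.95e-09). The knockout mean of 3.73 was below 5.49, where differences are compressed, so the fold is uncertain. BST2 was the single member that fell more than 2-fold. With IFI44L and TRIM22, which rose, 3 of 37 members were called at 2-fold or more, against 2.81% of all genes.

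The IFIT proteins bind viral RNA, and 3 of the 4 IFIT genes listed as members fell. IFIT1B, measured between IFIT3 and IFIT1, was not on the list. IFIT2 was at 4.67, 4.43, 4.20, 4.47 and 4.22 in parental arrays and 3.81, 3.97, 3.80, 3.97 and 3.72 in knockout arrays. The groups did not overlap, with a difference of -0.55 (limma, adjusted p = 0.00037). IFIT5 fell by 0.27 (limma, adjusted p = 0.00536), also without overlap, from 7.43 ± 0.13 to 7.15 ± 0.05 (SD, n = 5 each). IFIT3 fell by 0.29 (limma, adjusted p = 0.0191) with overlapping groups, and did not pass without parental replicate 1 (-0.25, adjusted p = 0.0512). IFIT1 was at 2.88 ± 0.11 and 2.82 ± 0.24 and did not pass. These genes are neighbours on chromosome 10, and IFIT1, IFIT2 and IFIT3 were dim.

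IFITM proteins block the fusion of virus with the membrane, and the 3 IFITM genes listed as members are neighbours on chromosome 11. IFITM3 was at 7.24, 7.12, 7.32, 7.35 and 7.09 in parental and 6.52, 7.01, 6.96, 6.57 and 6.84 in knockout arrays, which did not overlap. Its fall was 0.44 on the log2 scale (limma, adjusted p = 0.00359). IFITM1 fell by 0.22 without overlap (limma, adjusted p = 0.0267), but the call was lost when parental replicate 1 or 3, or knockout replicate 1 or 2, was left out (adjusted p of 0.0681, 0.0664, 0.0585 and 0.0612). It was also lost with the replicate number as a block (adjusted p = 0.0581). IFITM2 was at 10.22 ± 0.11 and 10.03 ± 0.15 (SD, n = 5 each) and did not pass (limma, adjusted p = 0.0968). It passed without knockout replicate 2 (-0.23, adjusted p = 0.0470). The 3 genes are close relatives, and whether their probe sets share signal was not tested.

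Of the 6 measured OAS, MX and other antiviral genes 3 fell and 3 did not pass. SAMD9L and SAMD9, neighbours on chromosome 7 that encode restriction factors of poxviruses, both fell without overlap of the groups. SAMD9L was at 6.30, 6.58, 6.12, 6.42 and 6.10 in parental arrays and 5.71, 5.80, 5.74, 5.84 and 5.67 in knockout arrays, a difference of -0.55 (limma, adjusted p = 0.000256). SAMD9 fell by 0.33 (limma, adjusted p = 0.00238). ISG20, an exonuclease that degrades RNA, fell by 0.61 (limma, adjusted p = 0.0038) from 4.67 ± 0.18 to 4.05 ± 0.32 (SD, n = 5 each), a dim gene with overlapping groups. Among the genes that did not pass, MX2 was at -0.011 (95% interval -0.22 to 0.19), RSAD2 at -0.014 (-0.20 to 0.17) and OASL at 0.055 (-0.08 to 0.19). All 3 were dim.

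The IFI family held the largest rise. IFI44L, a feedback modulator of the interferon response, was at 4.76, 4.70, 4.80, 4.96 and 4.74 in parental and 6.45, 6.43, 6.19, 6.29 and 6.47 in knockout arrays. The groups were far apart, and the difference of 1.57 ± 0.072 (SE) was 2.98-fold (limma, adjusted p = 4.31e-09). The parental mean was below 5.49, so this fold is uncertain too. Its neighbour and relative IFI44 was at 4.78 ± 0.08 and 4.94 ± 0.27 (SD, n = 5 each), with a difference of 0.16 (-0.08 to 0.40) that did not pass. IFI35 (-0.048, interval -0.19 to 0.10) and the apoptosis gene XAF1 (-0.0047, interval -0.30 to 0.29) did not pass either, and IFI44 and XAF1 were dim. IFI44L was thus the only one of the 4 measured genes in this group that passed.

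ISG15 is a ubiquitin-like protein that is attached to other proteins after interferon. Of the 6 listed genes of this system 4 fell (66.7%, against 19.0% of all genes and 31.5% of genes that were not dim). ISG15 itself was at 6.42, 6.32, 6.25, 6.18 and 6.23 in parental and 6.43, 5.95, 6.07, 5.99 and 5.74 in knockout arrays. The other 4 knockout arrays lay below every parental array, while knockout replicate 1 was just above the highest, and the difference of -0.24 did not pass (limma, adjusted p = 0.0987). Without knockout replicate 1 it was -0.34 and passed (limma, adjusted p = 0.00412), as it did with the replicate number as a block (adjusted p = 0.0439). UBE2L6, the conjugating enzyme, was at 5.89, 5.85, 5.98, 5.81 and 5.84 in parental arrays and 5.36, 5.58, 5.45, 5.42 and 5.26 in knockout arrays. It fell by 0.46 without overlap (limma, adjusted p = 9.89e-05).

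TRIM25 ligates ISG15 and ubiquitin, the latter to RIG-I. It was at 9.64, 9.64, 9.71, 9.70 and 9.55 in parental arrays and 8.83, 9.03, 9.07, 9.04 and 9.10 in knockout arrays. The difference was -0.63 ± 0.063 (SE), or 1.55-fold (limma, adjusted p = 4.32e-06), with knockout replicate 1 below the other knockout arrays. USP18, the protease that removes ISG15, fell by 0.31 (limma, adjusted p = 0.0215) with overlapping groups. Its adjusted p was 0.0559 without parental replicate 2, 0.0550 without parental replicate 5 and 0.0551 without knockout replicate 2. HERC5, the main ISG15 ligase, was dim at 3.52 ± 0.38 and 3.08 ± 0.15 (SD, n = 5 each). Its fall of 0.44 barely passed (limma, adjusted p = 0.0412), and in 7 of 10 fits that left out an array it did not. Those were the fits lacking parental replicate 2, 4 or 5 (adjusted p of 0.0596, 0.101 and 0.0896) and those lacking knockout replicate 1, 2, 3 or 4 (0.0622, 0.0905, 0.0866 and 0.0591). HERC6, its neighbour on chromosome 4, was at -0.19 and did not pass (limma, adjusted p = 0.0736), but did without parental replicate 1 (-0.24, adjusted p = 0.0318) or 5 (-0.24, adjusted p = 0.0364).

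The remaining 3 measured members were ubiquitin ligase genes. DTX3L, which partners PARP9 in antiviral and DNA damage signalling, was at 8.53, 8.70, 8.64, 8.77 and 8.42 in parental and 8.01, 8.14, 8.03, 7.93 and 8.03 in knockout arrays. It fell by 0.58 without overlap (limma, adjusted p = 2.84e-05). TRIM21, a cytosolic antibody receptor, fell by 0.51 (limma, adjusted p = 0.000449), from 5.98 to 6.36 in parental arrays to 5.41 to 5.73 in knockout arrays. TRIM22, a restriction factor of retroviruses, rose. It was at 6.12, 6.11, 6.21, 6.07 and 6.43 in parental and 7.26, 7.18, 7.28, 7.29 and 7.30 in knockout arrays, a difference of 1.07 ± 0.071 (SE), 2.10-fold (limma, adjusted p = 1.09e-07). TRIM5, another restriction factor that lies between TRIM21 and TRIM22 on chromosome 11, was at 0.073 and did not pass. No antigen processing or guanylate-binding protein gene of the list was measured.

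**Figure D3:**
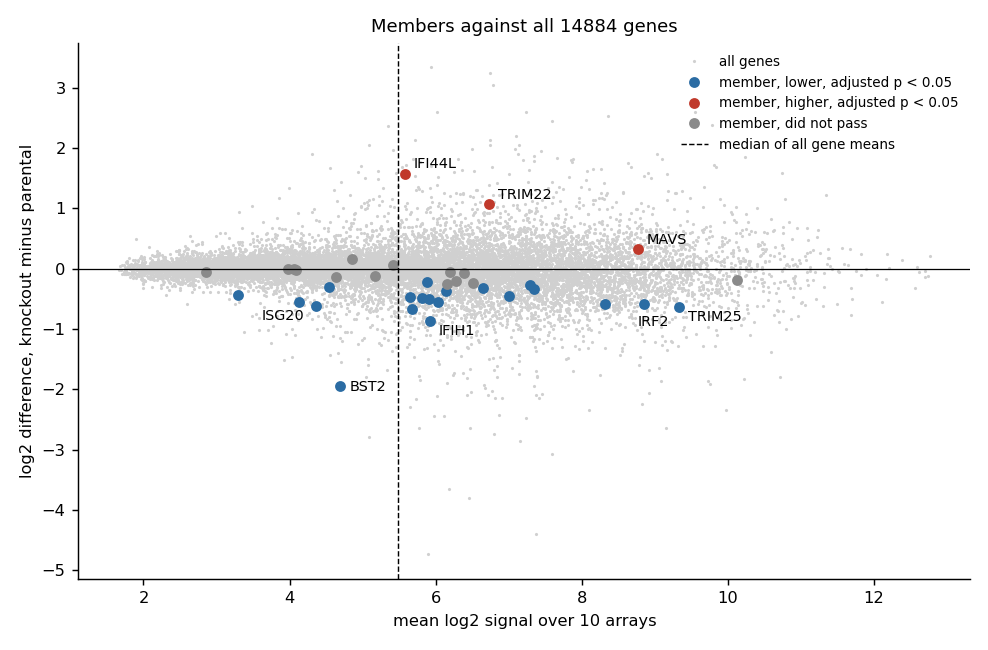
Log2 difference (knockout minus parental, y axis) against mean log2 signal over the 10 arrays (x axis) for all 14884 genes in grey and the 37 members in colour by call, with the median of all gene means (5.49) as a dashed line. The members lie mainly below 0 across the range of signal, IFI44L, TRIM22 and MAVS are the 3 above it that passed, and the spread of all genes narrows toward low signal.

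Of the 37 members 12 were dim, against 48.1% of all genes, and 4 of the 12 were called. Those 4 were IFIT2, IFIT3, ISG20 and HERC5. Among all dim genes 11.1% were called. Of the other 25 members 16 fell and 3 rose, so that 76.0% were called, against 55.9% of the 7726 genes that were not dim. The falls made up 64.0% of these members against 31.5% of such genes, and the rises 12% against 24.3%. Their median difference was -0.33, against -0.028 over the same genes.

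Members were also set beside their neighbours on the chromosome. For each member the median difference of the 10 measured genes on either side was taken (fewer at a chromosome end). For the 20 members that fell, this median ran from -0.13 to 0.35, and all 20 lay below it, an order that a choice of fallen members favours. TRIM25 stood in a neighbourhood on chromosome 17 that was higher, where 11 of 20 neighbours rose, 0 fell and the median was 0.35. IRF1 had 8 lower and 0 higher neighbours of 20 on chromosome 5 (median -0.13), and SAMD9 had 9 lower and 2 higher of 20 on chromosome 7 (median -0.13). Over all genes 19.0% were lower and 15.3% higher. Whether these members moved with their neighbours was not tested. IFI44L lay among genes with a median of 0.10, and TRIM22 among genes with a median of 0.02.

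Knockout replicate 1 was the lowest of the 5 knockout arrays in 13 of the 37 members and the highest in 7, against 4 to 7 and 4 to 9 for the other knockout arrays. Without it 19 members fell and 3 rose. The mean signal of the 37 members ran from 6.07 to 6.11 in parental arrays and from 5.80 to 5.86 in knockout arrays. It was lower in every knockout array than in every parental array.

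Other genes of the pathway were taken from lists written by function, and 57 of the 124 listed were measured. Of these 15 fell and 11 rose, a 45.6% share called against 34.3% of all genes, and the median was -0.042. The falls made up 26.3% of them against 19.0% of all genes, and the rises 19.3% against 15.3%. Among receptors and kinases IFNGR1, the ligand-binding chain of the receptor for interferon gamma, was at 8.0, 7.97, 7.85, 7.95 and 7.77 in parental and 9.07, 8.91, 8.89, 8.81 and 8.99 in knockout arrays. It rose by 1.02 without overlap (limma, adjusted p = 9.34e-08), while its partner IFNGR2 did not pass (-0.12). JAK1, a kinase shared by all interferon receptors, fell from 9.69 ± 0.05 to 8.99 ± 0.10 (SD, n = 5 each), by 0.70 (limma, adjusted p = 1.28e-06). JAK2, which serves the interferon gamma receptor, fell by 0.73 (limma, adjusted p = 4.19e-05), and TYK2 did not pass (0.059). A receptor chain gene was therefore higher and its kinase genes lower. The 21 listed interferon genes were not analysed here.

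In the list written for signalling downstream of the sensors 1 gene fell, 2 rose and 13 did not pass. The share called was 18.8%, below the 34.3% of all genes. This list also holds the sensor genes TLR3, TLR7, TLR9 and ZBP1, and the 1 gene that fell, TLR3, is such a sensor. TLR3, the endosomal receptor for double-stranded RNA, was at 8.13, 8.19, 7.95, 8.16 and 8.06 in parental and 7.14, 7.29, 7.39, 7.33 and 7.24 in knockout arrays. It fell by 0.82 without overlap (limma, adjusted p = 6.82e-07), next to the fall of the cytosolic RNA sensor gene IFIH1. TBK1, the kinase that activates IRF3, rose by 0.19 (limma, adjusted p = 0.0217), and G3BP1, a stress granule protein that aids RNA sensing, by 0.22 (limma, adjusted p = 0.00274). Of 5 measured inhibitor genes NLRX1 (-0.64), which restrains MAVS, and the deubiquitinase gene CYLD (-0.58) fell. The share called was 40%, against 34.3% of all genes and 55.9% of genes that were not dim. SOCS1, SOCS3 and OTUD5 did not pass, and the 2 probe sets of SOCS3 gave -0.14 and 0.12. The comparison with chromosome neighbours covered module members alone. NLRX1 lies on chromosome 11 (119168334 to 119184016), the chromosome that also holds the knocked-out H2A.X gene, and CYLD lies on chromosome 16. The distance from NLRX1 to the H2A.X gene was not measured here. Whether NLRX1 or CYLD moved with their neighbours was not tested, so a local effect and a pathway change cannot be told apart for NLRX1.

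Further interferon-stimulated genes moved in both directions, with 8 falls, 8 rises and 11 that did not pass. The share called was 59.3%, against 34.3% of all genes and 55.9% of genes that were not dim. Falls and rises were 29.6% each, against 19.0% and 15.3% of all genes. LAMP3, a lysosomal membrane protein, was at 7.98, 8.0, 8.06, 8.04 and 7.98 in parental and 4.71, 3.92, 4.66, 4.43 and 4.10 in knockout arrays, 12.5-fold lower (-3.65, limma, adjusted p = 7.54e-10). That fold is uncertain, because the knockout mean was below 5.49. SLFN5, a nuclear protein of the Schlafen family, was at 10.65, 10.79, 10.60, 10.58 and 10.68 in parental and 8.92, 8.73, 8.82, 8.80 and 8.75 in knockout arrays. It fell by 1.85, or 3.62-fold (limma, adjusted p = 2.25e-10), and remained a bright gene. GBP3, a guanylate-binding protein gene, fell by 0.96 (limma, adjusted p = 2.02e-05). CXCL11, a chemokine gene induced by interferon gamma, rose by 0.81 (limma, adjusted p = 0.000222), and was dim. These 4 genes were named as the largest that passed without overlap. The other rises of this list were smaller than that of CXCL11. Among them CXCL10 was dim, while LAP3, PML, SP100, TRIM14, OGFR and SAMHD1 were not. LAP3, PML, SP100 and TRIM14 rose without overlap. Of 4 measured antigen presentation genes ERAP1, an aminopeptidase that trims peptides, fell by 0.71 (limma, adjusted p = 8.62e-06). ERAP2 fell by 0.21 with overlapping groups (limma, adjusted p = 0.0394), and B2M (-0.074, or -0.28 by its other probe set) and TAPBP (0.15) did not pass.

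**Figure D4:**
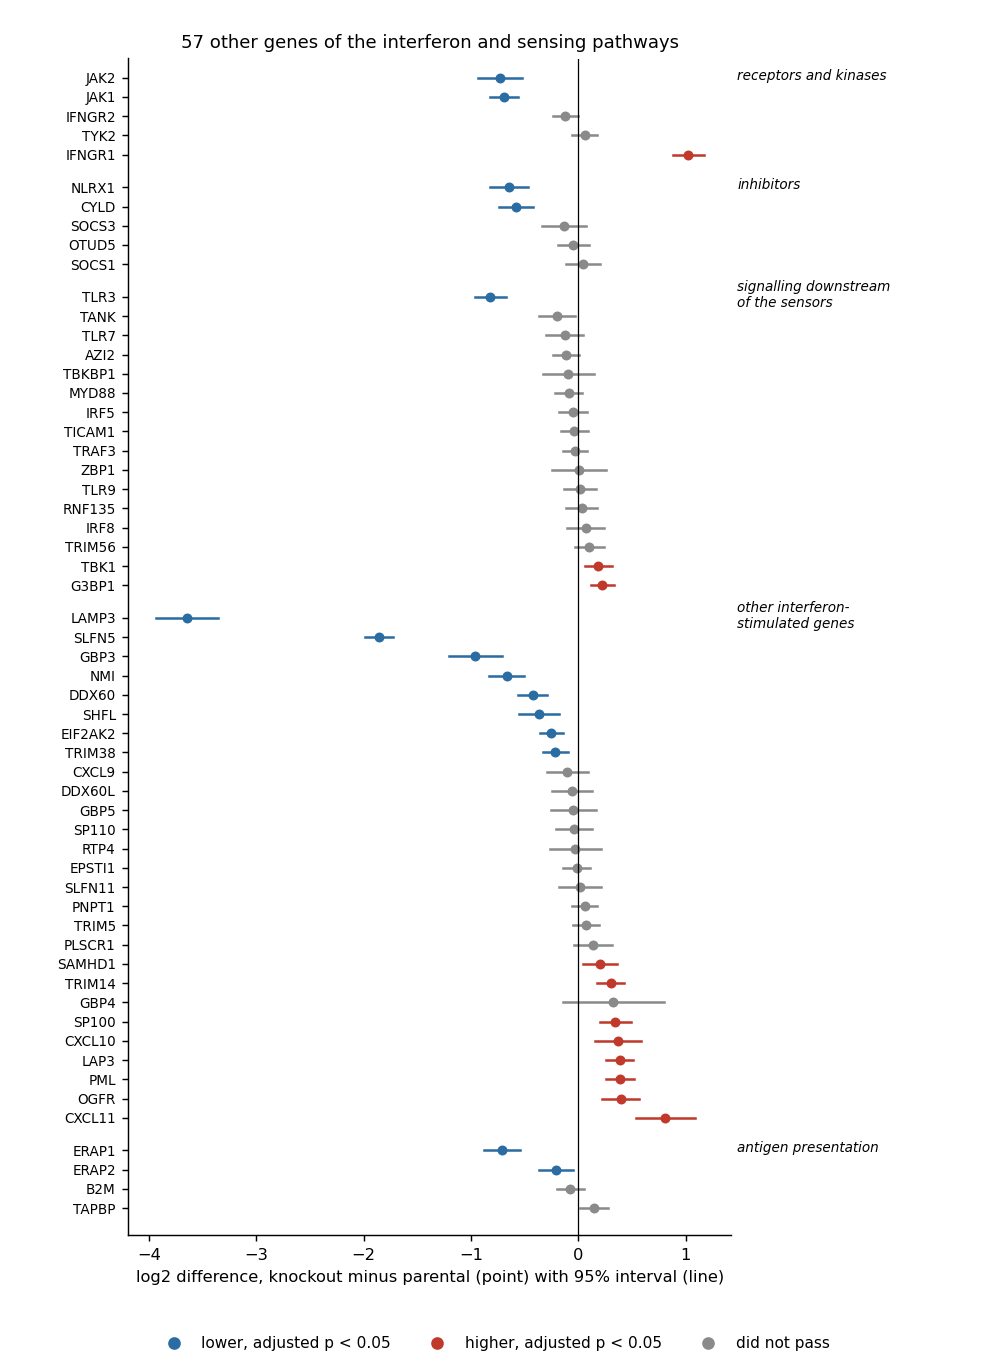
Log2 difference (knockout minus parental, x axis) of 57 other genes of the interferon and sensing pathways by list (y axis), with the unadjusted 95% interval as a line and the colour giving the call. LAMP3 at -3.65 and SLFN5 at -1.85 lie farthest left and IFNGR1 at 1.02 farthest right, with 15 lower, 11 higher and 31 that did not pass.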

How the data were processed

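The authors deposited 1 table of log2 signals per probe set for 10 arrays, already summarised and normalised. The tools named for this, per the submitters' processing notes, are Affymetrix Expression Console and Partek 6.6. How probes were summarised and normalised, and whether any were filtered, is not given in the sources used here. That the scale is log2 follows from the range of values (1.13 to 13.87). No detection calls were used here.

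Of 53617 probe sets 16098 carried 1 gene symbol, 0 several and 37519 none. Symbols were updated by Entrez identifier (RefSeq, GRCh38.p14), which matched all 16098. Each of 14884 genes was represented by its brightest probe set (mean of 10 arrays). Members of the module and the lists of other genes were chosen with earlier results of these data known. All 37 measured members are named; from each list of other genes up to 4 that passed without overlap between groups were named, by size. Further genes of the lists (IFNGR2, TYK2, TRIM5, SOCS1, SOCS3, OTUD5, ERAP2, B2M, TAPBP, the smaller rises of the other interferon-stimulated genes and the markers) were chosen after their values were seen.

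Groups were compared in R 4.3.3 with limma 3.58.1 (lmFit, then eBayes), two-sided, with all 10 arrays, no covariate and no filter. The procedure was also run on simulated data with independent noise and far fewer changed genes than were called here. That setting does not measure its errors in these data. The number of arrays limits the precision: the median SE of a member's difference was 0.088. Promoters and plots used Python 3.11.15, pandas 2.3.3 and matplotlib 3.10.9. Alternatives were quantile normalisation, median centring, a filter on dim genes, an intensity trend, array weights, a replicate block, averaged probe sets, adjustment over all probe sets, and each array left out.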

Additional observations from a re-analysis of the deposited data

Results flagged for a closer look

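In 2 of 74 sets of 5 arrays (37 members in 2 groups) a single array stood apart from the other 4 by more than Dixon's 95% limit of 0.71 of the range, a limit that chance passes in about 1 of 20 sets. Both were knockout replicate 1. TRIM25 was at 8.83 there, against 9.03 to 9.10 in the other knockout arrays. TRIM21 was at 5.41, against 5.71 to 5.73.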

How the results depend on the processing

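Across 18 alternatives 25 of the 37 members kept their direction and their side of the threshold, among them 16 of the 20 that fell and all 3 that rose. For the 6 dim members among the 25 (IFIT2 and ISG20 among the 16) this covers 17 alternatives, since dim genes were not tested in the fit without the dimmest genes. The median difference of members was -0.23 under quantile normalisation and -0.33 without the dimmest genes, against -0.27. With an array left out it ran from -0.28 to -0.25, with 18 to 20 members lower, 3 higher and 4705 to 5128 genes called in all. IFIT3, IFITM1, HERC5 and USP18 did not pass when adjustment ran over all 53617 probe sets (adjusted p of 0.0503, 0.0663, 0.0947 and 0.0555). IRF3, IFITM2 and HERC6 passed without the dimmest genes (adjusted p of 0.0371, 0.0468 and 0.0335), IFITM2 with an intensity trend (0.0313), and ISG15 with array weights (0.0227), where HERC5 did not (0.0528). Differences near 0 changed sign with an array left out: IFIT1 ran from -0.15 to 0.0036, MX2 from -0.081 to 0.061, RSAD2 from -0.070 to 0.039 and XAF1 from -0.086 to 0.087. RSAD2 was 0.021 with array weights. The cause was not tested.

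With the replicate number as a block, 21 members were lower, 3 were higher and 4972 genes were called. Deviations of arrays with the same number correlated at 0.20, 0.038, 0.049, -0.0086 and -0.014, in order of the replicate number. The pair at 0.20 stood above the others. No reference value was set for these correlations, so they do not settle whether samples with the same number shared a batch. Dim signals limit what could be seen in the 12 members under the median of all gene means.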
